A study of Mus musculus with 12 samples.

Results

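Squalene (SQ) was compared with untreated control in 3T3-L1 cells, using the 2 arrays labelled SQ 1 and SQ 2 against the 2 arrays labelled control 1 and control 2. These are 4 of the 12 Clariom S mouse arrays of a study that measured gene expression in 3T3-L1 cells given squalene or one of 4 ethylene glycol derivatives of it, named mono-, di-, tri- and tetra-SQ. The SQ cells received 5 µM squalene for 14 days, and the control cells received no compound over the same 14 days. All groups are of 1 cell line, 3T3-L1. The study text gives duplicate RNA samples per group without saying whether they came from separate cultures. The limma p-values thus measure the spread between duplicates over all groups, which may be technical. The labels of the controls say both that the cells were differentiated and that they had no induction, while the treatment protocol describes a hormone mix of IBMX, dexamethasone and insulin given with or without compound. Whether the controls received that mix is therefore not settled by the labels, and the marker genes below are given for that reason.

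3T3-L1 is a mouse fibroblast-like preadipocyte line that stops dividing at confluence and, under the hormone mix, turns into cells that store triglyceride. Squalene is an open-chain triterpene: cells build it from farnesyl diphosphate with the enzyme encoded by Fdft1, and squalene epoxidase (Sqle) takes it on towards lanosterol and cholesterol. When sterols build up in the endoplasmic reticulum, INSIG proteins hold back the transcription factor SREBP2, which drives most genes of this pathway and the LDL receptor.

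Values are the authors' log2 signals, so that a difference of 1 is 2-fold, and each SQ array was set against the mean of the 2 control arrays. The controls resembled each other (correlation across 22206 probe sets 0.9974, with 53 probe sets differing by 1 or more), and SQ 1 was closer to them (0.9917 and 0.9916) than SQ 2 was (0.9778 and 0.9777). SQ 1 and SQ 2 correlated at 0.976, and 3138 probe sets (14.1%) differed by 1 or more between them. The step between the 2 SQ arrays correlated across probe sets with the same step in each derivative at 0.48 to 0.675, and with that between the controls at 0.001. Differences also varied with signal: in SQ 1 the median difference was 0.125 for probe sets under 4 in the controls and -0.095 for those between 8 and 10, whereas in SQ 2 the medians were -0.03 and 0.12. Medians of the negative control probe sets, taken from the authors' second table, were 6.14 in SQ 1 and 6.48 in SQ 2, against 6.26 and 6.27 in the controls, and signals below them are called dim here.

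Adipocyte markers were present in every array. All 9 lay above the negative control median in the 2 SQ and the 2 control arrays, and the log2 of their summed signal was 20.007 in SQ 1 and 17.933 in SQ 2, against 19.902 and 19.955 in the controls. Preadipocyte and fibroblast markers (6 of 7 above the negative controls in each array) summed to 18.833 in SQ 1 and 19.76 in SQ 2, against 18.847 and 18.826 in the controls. SQ 1 thus lay just above both controls on the adipocyte sum, while SQ 2 was below both controls on that sum and above both on the preadipocyte sum. Of the defining markers of other cell types, 1 of 6 macrophage, 0 of 4 endothelial, 1 of 5 muscle, 1 of 4 osteoblast and 1 of 4 chondrocyte markers lay above the negative controls in each array. In RNA from whole cultures, fewer cells of a type and less RNA per cell cannot be told apart.

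No probe set passed the test of SQ against control. The limma test, fitted over all 12 arrays with adjustment across 22206 probe sets, made 0 calls (0%) at the 0.05 threshold, and the smallest adjusted p was 0.92. At an unadjusted p under 0.05 there were 1117 (5.03%), of which 551 were higher and 566 lower in SQ. With 2 arrays against 2, an exact permutation test of a single gene cannot go below a two-sided p of 0.333. What follows is therefore a description of the arrays, gene by gene and list by list, and differences are given with the standard error (SE) of the limma fit. That SE rests on the spread within all 6 groups, so it includes the step between the first and second arrays of each compound. Hmgn5, for example, had an SD of 0.18 in SQ and 0.08 in control, but an SE of 0.68.

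Taken one at a time, SQ 1 was at least 2-fold above the control mean for 331 probe sets (1.49%) and below it for 205 (0.923%), and SQ 2 for 1311 (5.9%) and 1178 (5.3%). Only 19 probe sets were at least 2-fold higher in both arrays (0.0856% of all) and 43 at least 2-fold lower in both (0.194%). The 19 make up 5.74% of the 331 that were higher in SQ 1 and 1.45% of the 1311 that were higher in SQ 2. The 43 make up 21.0% of the 205 that were lower in SQ 1 and 3.65% of the 1178 that were lower in SQ 2. The share of SQ 1 probe sets found again was thus near the SQ 2 background for the higher ones and above it for the lower ones, but both arrays are set against the same control mean and share its error. A further 1038 probe sets were higher and 898 lower in SQ 2 with less than 0.5 in SQ 1, 236 and 84 showed the reverse, and 12 were past 2-fold in both arrays with opposite signs.

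**Figure D1:**
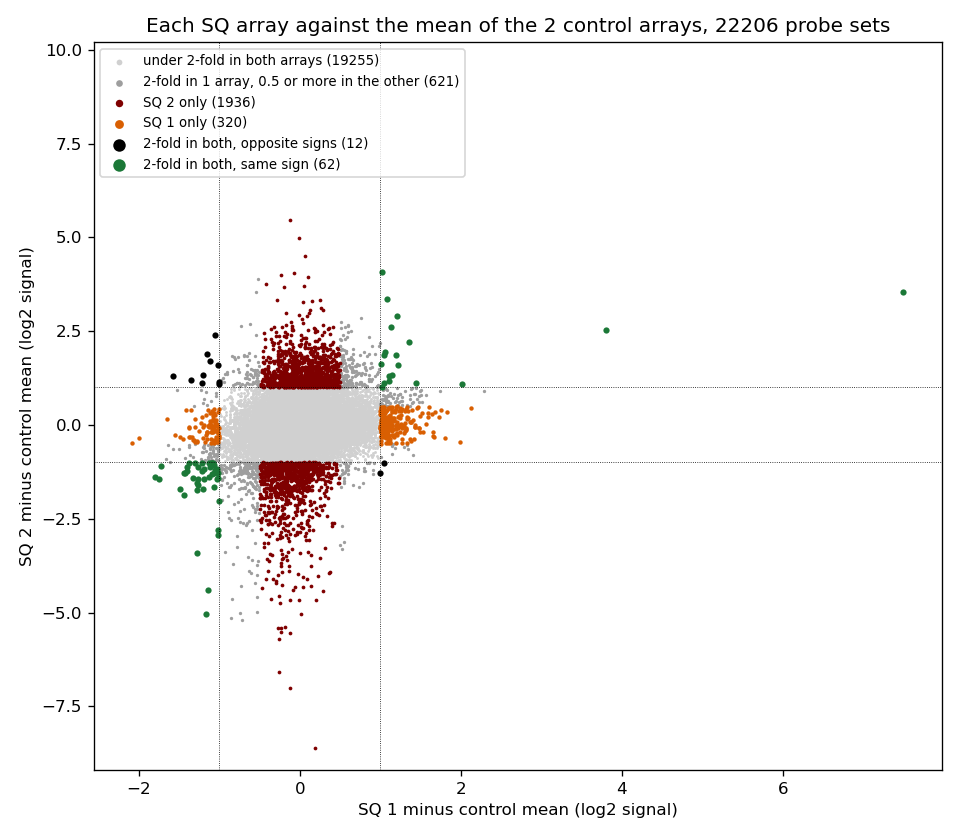
Each point is 1 probe set, with SQ 1 minus the control mean on the horizontal axis and SQ 2 minus the control mean on the vertical axis (log2 signal), coloured by class, and dotted lines mark 2-fold. The cloud is long in the vertical direction (SD of the differences 0.708 in SQ 2 and 0.415 in SQ 1), and 62 probe sets lie past 2-fold on the same side in both arrays.

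Ranked by the smaller of their 2 differences, the 15 named genes furthest above control included genes of DNA repair, DNA replication and vesicle transport. Of these, 10 belong to the class of 19, and Trappc4, Plac8, Akr1c13, Piezo2 and Cxcl13 lie just under 2-fold in 1 of the arrays. Rad51c, used in homologous recombination, had 7.84 and 8.04 in the SQ arrays, against 6.86 and 6.54 in the controls (difference 1.24 ± 0.45). Dbf4, the activating subunit of the replication kinase CDC7, had 8.12 and 8.95 in SQ, against 7.28 and 6.88 in control (1.46 ± 0.45). Both genes were above the negative control medians in all 4 arrays, and the 2 groups did not overlap. Trappc4, a subunit of a vesicle-tethering complex, had 9.16 and 9.66 in SQ, against 8.05 and 8.30 in control (1.24 ± 0.43). Plac8, a small cysteine-rich protein known in mouse as a regulator of brown fat formation, had 11.32 and 12.43 in SQ, against 10.40 and 10.27 in control (1.54 ± 0.60). In these 4 genes SQ 2 was the higher of the 2 SQ arrays, and SQ 1 was 0.985 above the control mean for both Trappc4 and Plac8.

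For Sulf2 and Phlda1 the step to SQ 2 was larger than for these 4 genes. Sulf2, an extracellular sulfatase that trims heparan sulfate, had 8.92 and 11.98 in SQ, against 7.83 and 7.97 in control (2.55 ± 1.81). Phlda1, a growth-factor-responsive pleckstrin homology protein, had 6.54 and 8.83 in SQ, against 5.26 and 5.66 in control, where it was dim. Eva1b had 9.07 and 9.95 in SQ, against 7.86 and 8.16 in control, and Slc37a2, a sugar-phosphate transporter, had 7.09 and 7.69 in SQ, against 6.31 and 5.84 in control. The groups did not overlap for any of them, but Sulf2 and Phlda1 (2.23 ± 1.26) had wide errors beside their differences.

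Several of these 15 genes were dim. Psmb8, the immunoproteasome subunit that ranked first by the smaller of its 2 differences, had 5.70 and 6.09 in SQ, against 4.51 and 4.45 in control, below the negative control median in all 4 arrays. Fkbp1b (5.77 and 5.84 in SQ, against 4.68 and 4.65 in control), a binder of calcium release channels, and the mechanosensitive channel gene Piezo2 (5.77 and 5.36 in SQ, against 4.32 and 4.44 in control) were dim in both groups as well. Where both control arrays were dim and at least 1 SQ array was not, the difference has a bound: Cand2, an assembly factor of cullin ubiquitin ligases (7.34 and 8.01 in SQ, against 6.18 and 6.10 in control), was at least 2.66-fold higher against the negative control median. The same bound was 1.80-fold for Xaf1, 1.13-fold for the aldo-keto reductase Akr1c13 and 1.09-fold for the B cell chemokine Cxcl13 (6.44 and 6.33 in SQ, against 5.36 and 5.38 in control). Akr1c13 was dim in SQ 1 as well, at 5.84, and Cxcl13 in SQ 2. Over the whole class, 7 of the 19 probe sets (36.8%) were dim in both groups, beside 52.1% of all probe sets, and 6 in neither.

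**Figure D2:**
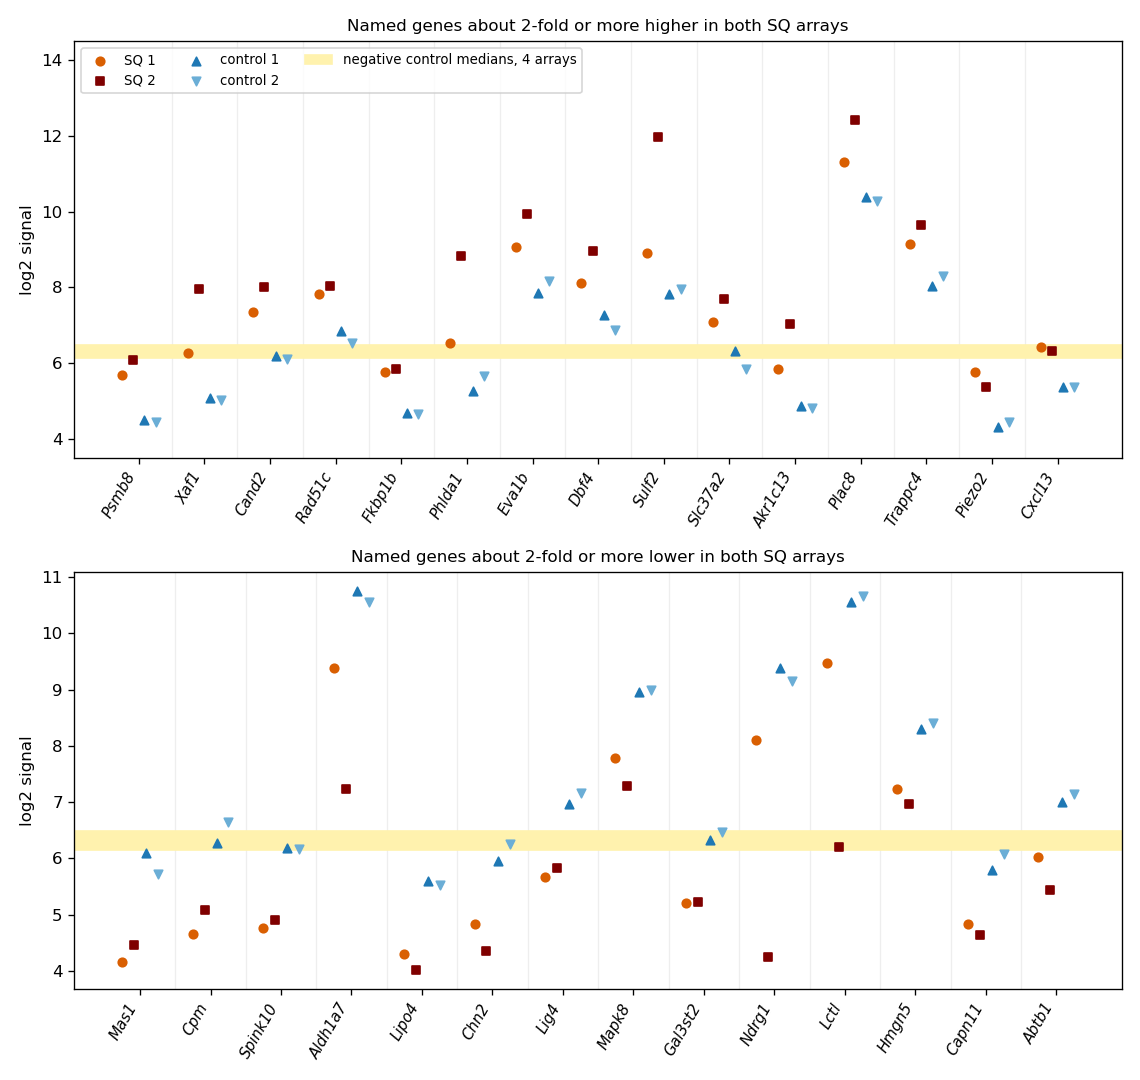
Log2 signal in SQ 1, SQ 2, control 1 and control 2 (left to right within each gene) for 15 named genes furthest above (top) and 14 of those furthest below (bottom) the control mean by the smaller of the 2 differences, with the yellow band spanning the negative control medians of the 4 arrays. Sulf2, Ndrg1 and Lctl show a large step between the SQ arrays, and Rad51c and Mapk8 a small one.

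Among genes lower in both arrays, a few that were above the negative control medians had only a small step between SQ 1 and SQ 2. Mapk8, the stress kinase JNK1, had 7.78 and 7.28 in SQ, against 8.96 and 8.99 in control (-1.45 ± 0.48). Hmgn5, a nucleosome-binding protein of active chromatin, had 7.23 and 6.97 in SQ, against 8.30 and 8.41 in control (-1.26 ± 0.68). In both genes the SQ arrays were at least 1 below the controls, and all 4 signals were above the negative control medians. The limma adjusted p was 0.92 for these and for each other gene named for both arrays.

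Other genes were lower in both arrays but far more so in SQ 2. Aldh1a7, a cytosolic aldehyde dehydrogenase, had 9.38 and 7.23 in SQ, against 10.75 and 10.56 in control (-2.35 ± 1.81). Lctl, a lactase-like family member, had 9.47 and 6.20 in SQ, against 10.56 and 10.66 in control (-2.78 ± 1.65). Ndrg1, a stress- and differentiation-linked protein, had 8.11 and 4.24 in SQ, against 9.39 and 9.16 in control (-3.10 ± 2.70), and was dim in SQ 2. In SQ 1 these genes were at -1.275, -1.14 and -1.165 from the control mean, and in SQ 2 at -3.425, -4.41 and -5.035.

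Of the class of 43, 24 (55.8%) were dim in both groups, near the 52.1% of all probe sets, and 10 in neither. Mas1, a receptor for angiotensin-(1-7), had the lowest place by the smaller difference, with 4.16 and 4.46 in SQ, against 6.09 and 5.72 in control. Mas1, the lipase gene Lipo4 (4.29 and 4.01 in SQ, against 5.60 and 5.53 in control) and the protease gene Capn11 (4.84 and 4.64 in SQ, against 5.80 and 6.07 in control) also had the smallest p-values of the named genes in the limma fit, and all 3 were dim in all 4 arrays. Genes dim in SQ but not in control included Lig4, the DNA ligase of end joining (5.66 and 5.83 in SQ, against 6.96 and 7.16 in control), and Abtb1 (6.02 and 5.44 in SQ, against 7.01 and 7.15 in control). Against the negative control median they were at least 1.68-fold and 1.70-fold lower. Cpm and Gal3st2 were also dim in SQ, with bounds of only 1.10-fold and 1.06-fold. Chn2, dim in SQ and in control 1, had no bound. Olfactory, vomeronasal or taste receptor genes, which adipocytes are not known for, made up 7 of the 43 (16.3%) and 4 of the 19 (21.1%), beside 1486 of all probe sets (6.69%).

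Just inside the 2-fold limit in both arrays lay Olfr522 (1.02 and 1.00) among the higher and Mdh1b (-1.13 and -1.01) among the lower probe sets, and just outside lay Akr1c13 (0.995 and 2.19) and Olfr348 (-0.995 and -1.24). A predicted locus, Gm11096, showed the largest difference in SQ 1, with 14.76 and 10.82 in SQ, against 7.44 and 7.09 in control. It was singled out after its values were seen and falls outside the rule for named genes.

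Cholesterol synthesis is the pathway that squalene belongs to, and 16 of its 19 measured genes were below both controls in both SQ arrays, beside 22.5% of all probe sets. In SQ 1 16 were below the control mean (50.1% of all probe sets) and in SQ 2 18 (52.3%). The median difference was -0.235 in SQ 1 and -1.315 in SQ 2, against -0.005 and -0.03 over all probe sets. Over probe sets at 12 or more in the control mean, the medians were -0.065 and -0.02. Hsd17b7, a 3-ketosteroid reductase late in the pathway, had 12.92 and 12.38 in SQ, against 13.69 for both controls (-1.04 ± 0.69). Both SQ arrays were below both controls, and SQ 2 was the lower of them.

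The enzymes on either side of squalene itself had a larger step between the SQ arrays. Fdft1, which makes squalene, had 13.22 and 11.95 in SQ, against 13.38 and 13.40 in control. Sqle, which consumes it, had 12.32 and 10.06 in SQ, against 12.18 and 12.21 in control, so SQ 1 was above both controls and SQ 2 below them. Lss, the cyclase that follows, had 13.48 and 12.31 in SQ, against 13.83 and 13.81 in control. Among the genes of the list given here, the largest differences in SQ 2 were at Dhcr7 and Cyp51. Dhcr7, the final reductase of one branch, had 11.63 and 9.24 in SQ, against 11.97 and 11.82 in control. The demethylase Cyp51 had 12.82 and 10.78 in SQ, against 13.06 and 13.02 in control. The first enzymes were lower by less than Dhcr7 and Cyp51, but so were the late enzymes Nsdhl and Sc5d given below. Acat2 had 13.01 and 12.39 in SQ, against 13.26 and 13.22 in control. The synthase Hmgcs1 had 16.85 and 15.64 in SQ, against 16.98 and 16.93 in control.

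The remaining steps of the mevalonate arm followed the same order of arrays with 1 exception. The kinase Mvk had 6.39 and 5.70 in SQ, against 6.66 and 6.84 in control, the decarboxylase Mvd 10.25 and 8.67 in SQ, against 10.53 and 10.51 in control, and the isomerase Idi1 12.30 and 11.03 in SQ, against 12.73 and 12.70 in control. Pmvk, the second kinase, was the exception: it had 6.69 and 7.34 in SQ, against 7.64 and 7.50 in control, so that SQ 1 was the lower array. Fdps, which makes farnesyl diphosphate, had 11.46 and 10.79 in SQ, against 11.60 and 11.56 in control. Of the sterol-modifying enzymes, Msmo1 (11.38 and 9.78 in SQ, against 11.63 and 11.60 in control), Nsdhl (14.11 and 13.08 in SQ, against 14.32 and 14.43 in control) and Sc5d (15.28 and 14.65 in SQ, against 15.35 for both controls) were below control in both arrays. Ebp (9.34 and 9.38 in SQ, against 9.20 and 9.09 in control) was above control in both.

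**Figure D3:**
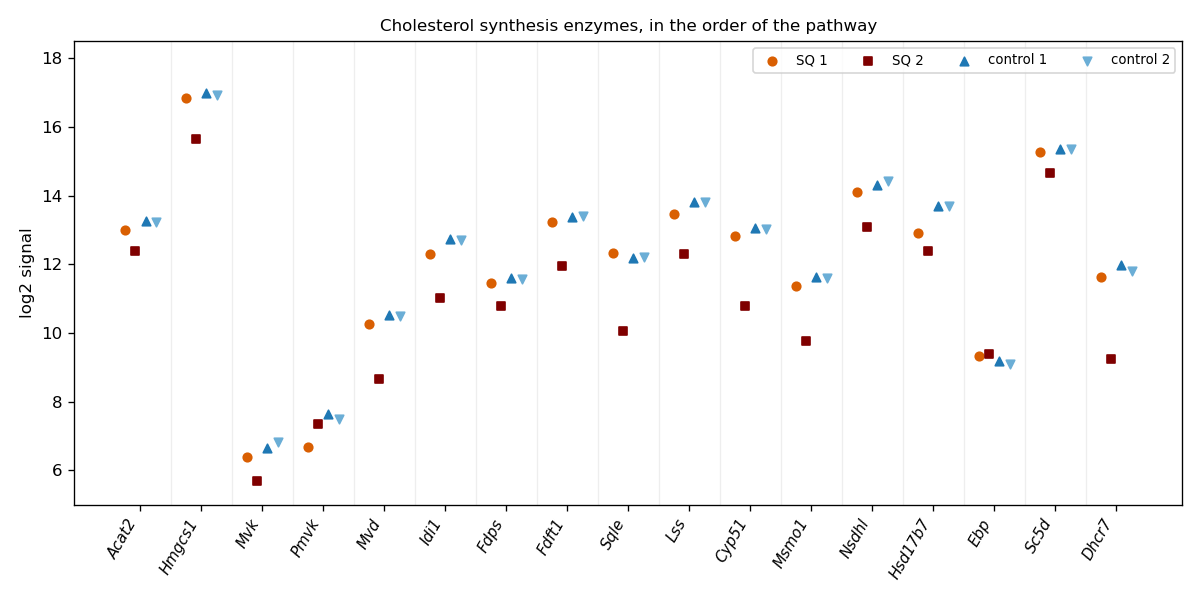
Log2 signal of 17 of the 19 measured cholesterol synthesis genes in SQ 1, SQ 2, control 1 and control 2 (left to right within each gene), in the order of the pathway. SQ 2 lies below both controls at every gene drawn but Ebp, while SQ 1 lies within 0.5 of the control mean at all but Hsd17b7 and Pmvk.

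Promoters are shown for the 2 enzymes Hsd17b7 and Hmgcs1 because they differed in pattern, the first being below control in both SQ arrays and the second mainly in SQ 2. The windows run from 250 bases before to 50 bases after the annotated start, in the GRCm38.p6 tables of RefSeq, at chr1:169969156-169969455 on the minus strand and chr13:119690101-119690400 on the plus strand. Capitals mark matches to CCAAT on either strand, the letters bound by the factor NF-Y, which works beside SREBP2 at sterol genes.
Hsd17b7: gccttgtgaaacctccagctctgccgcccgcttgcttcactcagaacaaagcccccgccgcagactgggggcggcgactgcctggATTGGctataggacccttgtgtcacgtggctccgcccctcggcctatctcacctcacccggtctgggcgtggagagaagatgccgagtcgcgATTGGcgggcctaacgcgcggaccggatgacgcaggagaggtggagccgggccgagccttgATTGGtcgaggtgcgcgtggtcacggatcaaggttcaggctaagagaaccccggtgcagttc
Hmgcs1: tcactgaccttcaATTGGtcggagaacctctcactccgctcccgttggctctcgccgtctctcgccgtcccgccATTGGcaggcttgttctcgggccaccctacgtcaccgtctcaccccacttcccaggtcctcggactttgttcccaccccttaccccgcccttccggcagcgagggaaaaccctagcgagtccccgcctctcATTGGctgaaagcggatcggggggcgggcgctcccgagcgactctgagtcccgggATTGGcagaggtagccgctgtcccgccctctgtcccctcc
The letters CCAAT occurred 3 times in the first and 4 times in the second window. They were present in 13 of the 14 genes of the list that had a promoter entry (92.9%), beside 41.1% of all 27025 genes and 37.4% of all 32851 promoter windows. The sterol element letters TCACNCCAC were present in 1 of the 14 (Hmgcs1), beside 1.24% of all windows. These are matches of letters in these windows, not evidence of binding.

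Sterol sensing and uptake genes were lower by less, with 10 of 20 below both controls in both SQ arrays and 2 above (22.5% and 19.9% of all probe sets), and medians of -0.148 in SQ 1 and -0.648 in SQ 2. Mylip, the ubiquitin ligase that removes the LDL receptor, had 11.66 and 11.38 in SQ, against 12.17 and 12.12 in control (-0.63 ± 0.44). The oxysterol receptor gene Nr1h3 (LXR alpha), which is high in fat cells, had 9.96 and 7.09 in SQ, against 10.55 and 10.66 in control. The sterol transfer protein Osbpl8 had 10.32 and 8.94 in SQ, against 10.80 and 10.67 in control. For Mylip the SQ arrays were close to each other, and for Nr1h3 they were far apart.

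Fat synthesis and mature adipocyte genes were far lower in SQ 2 than in SQ 1. Of 22 triglyceride and fatty acid synthesis genes, 16 were below both controls in both SQ arrays (22.5% of all probe sets were), but the medians were -0.17 in SQ 1 and -1.76 in SQ 2. Of 27 mature adipocyte genes, 15 were below both controls in both arrays, beside the same 22.5%, with medians of -0.105 in SQ 1 and -2.665 in SQ 2. In SQ 2 16 of the 22 and 19 of the 27 were at least 2-fold lower, and in SQ 1 none of either list was, beside backgrounds of 5.3% and 0.923%. In SQ 2 both lists were low, as was the adipocyte marker sum given above. The markers are mature adipocyte genes too, so their sum is not a measure separate from that list. The median difference of the 9 markers was 0.0 in SQ 1 and -2.925 in SQ 2. In SQ 1 both list medians were slightly below control, while that sum lay just above both controls. Probe sets at 12 or more in the control mean had a median of -0.065 in SQ 1. The part of that sum in the differences was not tested.

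Most genes of these lists lay below both controls in SQ 1 as well, and those named here were picked by the smaller of their 2 differences. Pnpla3, a lipid droplet enzyme, had 6.65 and 4.19 in SQ, against 7.66 and 7.50 in control (-2.16 ± 1.25), and was dim in SQ 2. Dgat1, which adds the last acyl chain to triglyceride, had 11.25 and 8.03 in SQ, against 11.79 and 11.76 in control. Acss2, which makes cytosolic acetyl-CoA from acetate, had 9.66 and 7.19 in SQ, against 10.02 and 10.15 in control. SQ 1 was below both controls for these 3 genes, and SQ 2 was far lower still. The second derivative arrays, which share these controls, were low as well for Dgat1 and Acss2. From the control mean they were at -4.315 to -3.315 for Dgat1, against -3.745 in SQ 2. For Acss2 they were at -2.715 to -2.365, against -2.895 in SQ 2. Adig, an adipocyte membrane protein, had 9.17 and 7.18 in SQ, against 9.51 for both controls, and leptin (Lep) and Rbp4 were dim in all 4 arrays.

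Transcription factors of adipogenesis had medians of -0.185 in SQ 1 and -0.31 in SQ 2, with 9 of 21 below both controls, beside 22.5% of all probe sets. Ebf2, which marks brown and beige adipocyte precursors, had 6.61 and 5.84 in SQ, against 7.55 and 7.42 in control (-1.26 ± 0.52), and Zfp423, a preadipocyte commitment factor, had 7.71 and 6.92 in SQ, against 8.06 and 8.16 in control. Preadipocyte and fibroblast genes had medians of 0.11 in SQ 1 and 0.765 in SQ 2, with 8 of 19 above both controls in both SQ arrays, beside 19.9% of all probe sets. Ly6a, the surface marker Sca-1, had 11.03 and 11.73 in SQ, against 10.39 and 10.52 in control (0.93 ± 0.44). Twist2, a mesenchymal repressor, had 6.10 and 6.63 in SQ, against 5.49 and 5.58 in control, where it was dim.

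Energy metabolism lists followed the fat genes in direction at a smaller size. Fatty acid oxidation (12 of 21 below both controls, medians -0.16 in SQ 1 and -0.83 in SQ 2), the citric acid cycle (11 of 20, -0.092 and -0.69), glycolysis (9 of 16, -0.08 and -0.632) and peroxisome biogenesis (7 of 19, -0.17 and -0.475) were each lower in the median, and 22.5% of all probe sets were below both controls. That share was not taken by signal level. Probe sets at 12 or more in the control mean had medians of -0.065 in SQ 1 and -0.02 in SQ 2. The SQ 1 medians of glycolysis and the citric acid cycle, lists at that level, were thus near that of other bright probe sets. Acaa1a, the peroxisomal thiolase, had 10.63 and 10.26 in SQ, against 10.87 and 11.12 in control, and the glycolytic kinase Pfkl had 15.22 and 14.38 in SQ, against 15.58 and 15.46 in control. Dlst, a subunit of the oxoglutarate dehydrogenase complex, was as low in SQ 1 as in SQ 2, with 8.94 and 9.13 in SQ, against 9.68 and 9.78 in control. Oxidative phosphorylation genes had medians of 0.108 in SQ 1 and -0.162 in SQ 2, so that list differed in sign between the arrays.

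Cytosolic ribosomal protein genes were the list that stood most often above control in both arrays. Of 61 genes, 53 were above both controls in both SQ arrays and 0 below, beside 19.9% and 22.5% of all probe sets, with medians of 0.285 in SQ 1 and 1.175 in SQ 2. In SQ 1 53 were above the control mean (49.3% of all probe sets) and in SQ 2 61 (47.3%). Rpl7, of the large subunit, had 16.35 and 16.96 in SQ, against 15.56 and 15.59 in control (1.08 ± 0.29). Rps21, of the small subunit, had 15.24 and 16.30 in SQ, against 14.55 and 14.60 in control (1.20 ± 0.36), and Rps14 had 14.41 and 14.79 in SQ, against 13.85 and 13.79 in control (0.78 ± 0.20). All 3 were above both controls in both arrays, and limma gave each an adjusted p of 0.92. Many ribosomal protein genes have near-identical processed copies, so their signals may hold more than 1 source.

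Ribosomal protein genes are short, and short genes differed a little from long ones in both arrays. Among 6466 probe sets at 8 or more in the control mean with a gene span in RefSeq, split into 5 groups by span, the shortest group had medians of 0.00 in SQ 1 and 0.195 in SQ 2, and the longest -0.11 and 0.03. The part of this in the ribosomal difference was not tested. Translation factors had medians near 0 (0.005 and 0.18), although Eif3e (12.20 and 12.25 in SQ, against 11.67 and 11.64 in control) and the poly(A)-binding protein gene Pabpc1 (16.52 and 17.12 in SQ, against 16.14 and 16.01 in control) were above control in both arrays. Proteasome subunits had 12 of 30 above both controls and 3 below, beside 19.9% and 22.5% of all probe sets, with medians of -0.057 and 0.41. Among them Psmc5, a regulatory ATPase, had 9.55 and 9.58 in SQ, against 9.03 and 8.92 in control.

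Antigen processing and interferon-stimulated genes both had members above control in both arrays. Of 14 antigen processing genes, 9 were above both controls in both SQ arrays and 0 below (medians 0.202 in SQ 1 and 0.96 in SQ 2). Of 35 interferon-stimulated genes, 11 were above both controls and 2 below, with a median of -0.125 in SQ 1 and 0.895 in SQ 2. Over all probe sets 19.9% were above both controls and 22.5% below. H2-M3, a non-classical MHC class I gene, had 7.15 and 8.03 in SQ, against 6.49 and 6.42 in control (1.14 ± 0.41). Ifit3, an antiviral RNA-binding family member, had 9.29 and 10.68 in SQ, against 8.94 and 8.75 in control, and Xaf1, an interferon-induced partner of the apoptosis inhibitor XIAP, had 6.26 and 7.97 in SQ, against 5.08 and 5.03 in control (2.06 ± 0.89). H2-M3 and Ifit3 were above the negative controls in all 4 arrays, and Xaf1 was dim in both controls.

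The promoters of Xaf1 and Ifit3 are shown because these 2 interferon-stimulated genes were above control in both SQ arrays. The windows, again from RefSeq on GRCm38.p6, are chr11:72301379-72301678 and chr19:34583279-34583578, both on the plus strand. Capitals mark matches on either strand to the core of the interferon-stimulated response element.
Xaf1: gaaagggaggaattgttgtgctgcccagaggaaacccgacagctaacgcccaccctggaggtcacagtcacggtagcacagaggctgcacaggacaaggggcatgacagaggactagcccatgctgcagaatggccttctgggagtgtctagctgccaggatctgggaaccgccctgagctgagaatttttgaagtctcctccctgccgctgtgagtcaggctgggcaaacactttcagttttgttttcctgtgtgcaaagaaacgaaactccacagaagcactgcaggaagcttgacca
Ifit3: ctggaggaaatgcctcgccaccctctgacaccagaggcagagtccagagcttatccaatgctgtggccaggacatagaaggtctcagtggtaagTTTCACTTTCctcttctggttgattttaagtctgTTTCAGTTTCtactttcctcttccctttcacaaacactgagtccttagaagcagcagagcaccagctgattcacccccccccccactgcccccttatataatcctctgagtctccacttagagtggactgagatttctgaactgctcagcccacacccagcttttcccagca
Ifit3 held 2 matches and Xaf1 held 0, which says only that these letters are not in that window. Of the 24 genes of the list with a promoter entry, 14 held the core (58.3%), as did 4 of 13 antigen processing genes (30.8%), beside 3.99% of all genes and 3.44% of all windows.

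Chemokine and cytokine genes had 10 of 28 above both controls and 1 below, beside 19.9% and 22.5% of all probe sets (medians 0.125 in SQ 1 and 0.752 in SQ 2). Ccl7, a monocyte chemokine, had 8.03 and 10.13 in SQ, against 7.48 and 7.07 in control (1.81 ± 0.98). Of the Toll-like receptor genes, Tlr4, the receptor for bacterial lipopolysaccharide and saturated fat signals, had 10.71 and 10.51 in SQ, against 11.78 and 11.60 in control (-1.08 ± 0.63). Its partner Cd14 (5.89 and 5.96 in SQ, against 5.11 and 5.00 in control) and Tlr6 (4.72 and 5.08 in SQ, against 6.03 and 6.15 in control) were dim in all 4 arrays. Of the 25 genes of that pathway, 6 were above and 6 below both controls, near the 19.9% and 22.5% of all probe sets.

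Cell division genes differed between the SQ arrays. DNA replication genes had a median of -0.2 in SQ 1 and 0.995 in SQ 2, and mitosis genes -0.12 and 1.352, so that most were at or below control in SQ 1 and above it in SQ 2. A few were higher in both. Rfc4 and Rfc5, subunits of the clamp loader, had 8.15 and 9.08 and 8.37 and 8.14 in SQ, against 7.46 and 7.59 and 7.40 and 7.27 in control (1.09 ± 0.33 and 0.92 ± 0.33). Mcm5, of the replicative helicase, had 8.93 and 9.68 in SQ, against 8.20 and 8.31 in control (1.05 ± 0.66). In Rfc5 SQ 1 was the higher of the 2 SQ arrays.

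Some cell division genes were among those past 2-fold with opposite signs in the 2 arrays. Esco2, an acetyltransferase of sister chromatid cohesion, had 4.68 and 7.55 in SQ, against 6.08 and 6.43 in control. Spag5, a spindle protein, had 4.77 and 7.32 in SQ, against 5.89 and 6.34 in control, and the DNA repair gene Rad51b had 4.84 and 7.66 in SQ, against 6.02 and 5.88 in control. Esco2, Spag5 and Rad51b were dim in SQ 1 and in control 1, and Rad51b also in control 2. Their step from control to SQ 1 thus lay at or near the negative control level. Naip5 and Zfp618 were the other named genes of this class, and in all 5 the controls lay between SQ 1 and SQ 2. Group means hide these genes: the limma difference was -0.14 ± 1.01 for Esco2 and -0.07 ± 0.80 for Spag5.

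Matrix genes were close to control in SQ 1 (median -0.065 over 30 genes) and higher in SQ 2 (1.345). Timp1, an inhibitor of matrix metalloproteinases, was above in both, with 13.06 and 14.55 in SQ, against 12.19 and 12.21 in control (1.61 ± 0.68). Collagens had medians of -0.175 in SQ 1 and 0.40 in SQ 2, and Col6a2 was lower in both arrays, with 14.13 and 14.25 in SQ, against 14.57 and 14.47 in control. Among other lists, Igfbp7 (14.39 and 15.12 in SQ, against 13.91 and 13.97 in control) was higher in both arrays. The phosphoinositide 3-kinase gene Pik3cb (7.54 and 6.82 in SQ, against 8.12 and 8.13 in control) and the cystine transporter gene Slc7a11 (8.76 and 8.01 in SQ, against 9.42 and 9.39 in control) were lower in both.

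The genes seen in SQ 2 alone were of another kind, with immediate early genes at the top. Egr1, a growth-signal transcription factor induced within minutes of a stimulus, had 10.18 and 15.76 in SQ, against 10.30 for both controls. Ier2 had 7.15 and 12.14 in SQ, against 7.17 and 7.15 in control, and the AP-1 subunit gene Junb had 6.94 and 11.16 in SQ, against 7.28 and 7.06 in control. SQ 1 was within 0.3 of the control mean for each, and the group difference of Egr1 was 2.67 ± 3.02. Zfp36, which destabilises cytokine mRNAs, and Egr2 belonged to the same class, as did Ogn, Apod, Mmp3, Ctla2a and Islr, genes of matrix and secreted proteins. Of 22 immediate early genes, 13 were at least 2-fold higher in SQ 2, beside 5.9% of all probe sets (median 1.61), and the median in SQ 1 was -0.08.

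On the lower side of that class stood several genes with known roles in fat cells. Enpp2, the secreted enzyme autotaxin, had 19.24 and 12.34 in SQ, against 19.35 and 19.37 in control. Slc2a4, the insulin-responsive glucose transporter GLUT4, had 11.92 and 6.73 in SQ, against 12.13 and 12.08 in control. Pde3b, which limits lipolysis under insulin, had 13.47 and 8.28 in SQ, against 13.72 and 13.68 in control. The lowest of all was Ghrh, the growth hormone releasing hormone gene, with 13.97 and 5.17 in SQ, against 13.82 and 13.74 in control. Ghrh was dim in SQ 2. In each of these genes SQ 1 was within 0.3 of the control mean and SQ 2 was more than 5 below it.

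**Figure D4:**
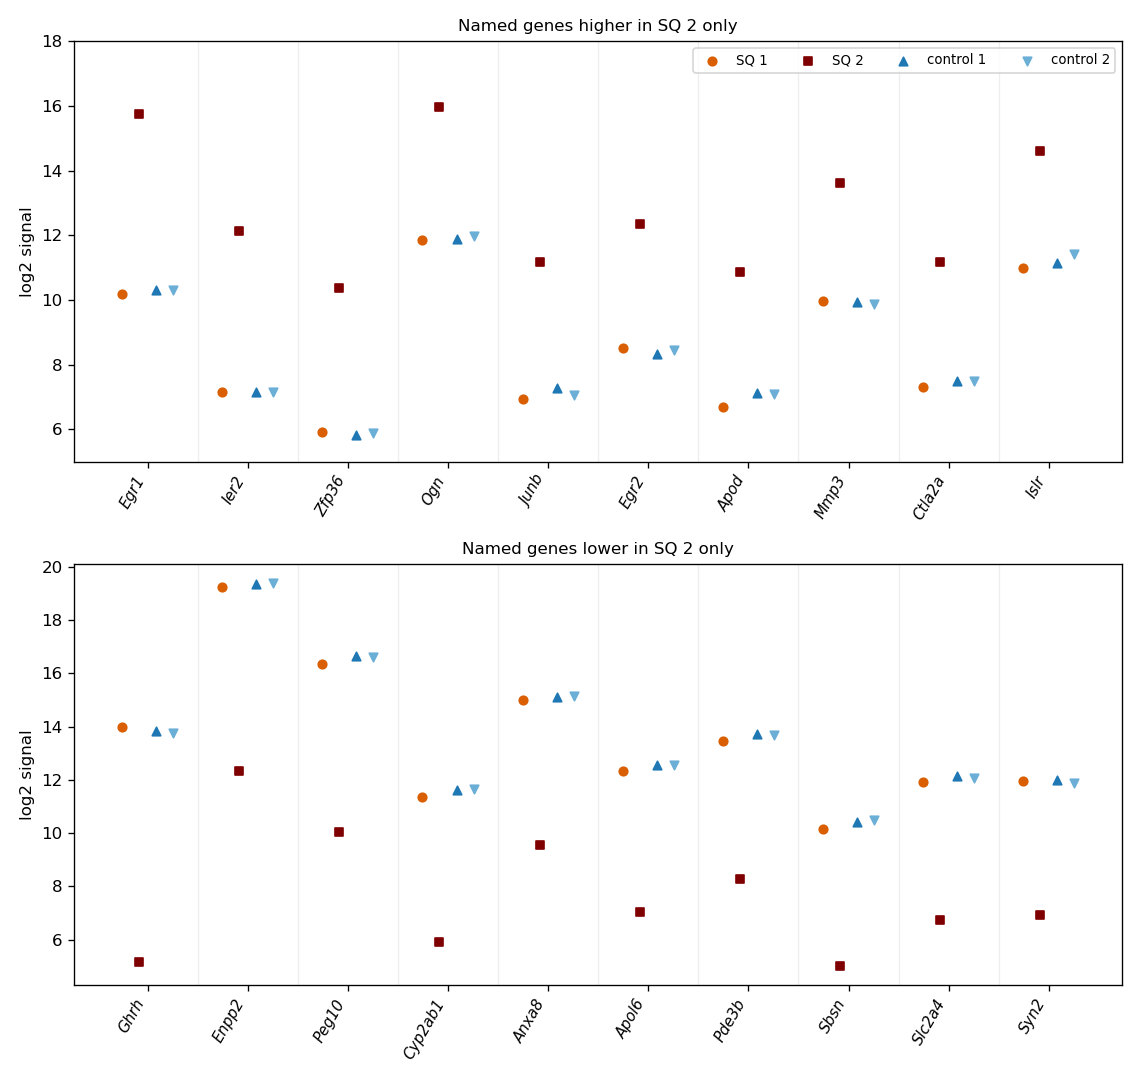
Log2 signal in SQ 1, SQ 2, control 1 and control 2 (left to right within each gene) for the 10 named genes furthest above (top) and below (bottom) the control mean in SQ 2 among those within 0.5 of it in SQ 1. SQ 1 lies among or beside the control arrays and SQ 2 stands apart from the other 3 arrays at every gene.

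The second arrays of the derivatives are given beside SQ 2 for 3 of these genes. Egr1 was 5.46 above the control mean in SQ 2 and 5.46 to 5.77 above it in the 4 second derivative arrays, which share these controls, while SQ 1 was at -0.12 and the first derivative arrays at -0.57 to -0.13. Enpp2 was at -7.02 in SQ 2 and at -7.14 to -6.37 in the second derivative arrays. Ghrh was the lower in SQ (-8.61 in SQ 2, against -7.63 to -6.62 in the second derivative arrays). It was dim in SQ 2, so nothing is read from that gap. Array number and any effect of squalene in the second array cannot be told apart in SQ alone. The same holds for the list medians of SQ 2 given above.

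Genes higher in SQ 1 alone were mostly faint. Of the 236 higher probe sets, 199 (84.3%) were dim in both groups, beside 52.1% of all, and 46 (19.5%) were olfactory, vomeronasal or taste receptor genes, beside 6.69% of all. Of the 6 named genes, 5 were dim in both controls, and the troponin gene Tnnc1 of heart and slow muscle was the other, with 8.17 and 6.74 in SQ, against 6.77 and 6.71 in control. The 84 lower ones were dim in both groups in 39 cases (46.4%), which is below the share of all probe sets. Myo9a, an unconventional myosin that inactivates RhoA, had 7.68 and 9.29 in SQ, against 9.56 and 9.96 in control, and the deubiquitinase gene Zufsp had 5.47 and 7.12 in SQ, against 7.50 and 7.42 in control.

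**Figure D5:**
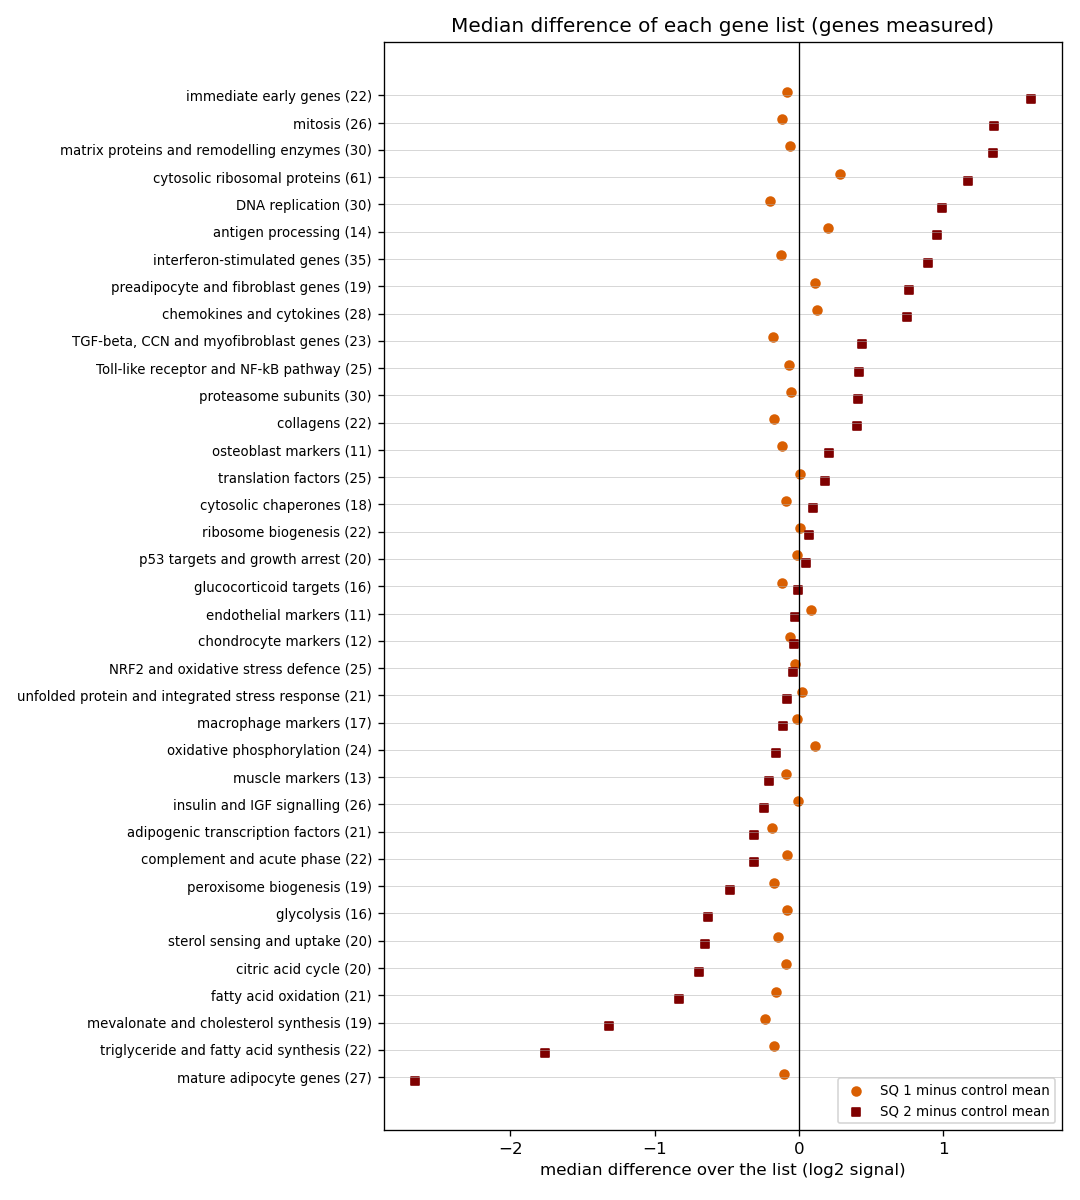
Median difference from the control mean (log2 signal) over each of 37 gene lists, with the number of measured genes in brackets, for SQ 1 (circles) and SQ 2 (squares), ordered by SQ 2. Over these lists the SQ 1 medians lie between -0.235 and 0.285, and the SQ 2 medians between -2.665 and 1.61.

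Several lists had medians near 0 in both arrays. These were ribosome biogenesis (0.008 in SQ 1 and 0.068 in SQ 2), cytosolic chaperones (-0.09 and 0.095), the unfolded protein and integrated stress response (0.02 and -0.085), oxidative stress defence (-0.03 and -0.04), and p53 targets (-0.01 and 0.05). In SQ 2, 7 of the 25 oxidative stress defence genes were at least 2-fold lower and 2 at least 2-fold higher, beside 5.3% and 5.9% of all probe sets. Some members of these lists differed alike in both arrays. The heat shock factor gene Hsf1 had 7.67 and 7.72 in SQ, against 8.11 and 8.22 in control, the stress transcription factor gene Atf3 had 7.47 and 7.17 in SQ, against 8.03 and 7.71 in control, and the glutathione transferase gene Gsta4 had 10.45 and 10.22 in SQ, against 9.79 and 9.81 in control (0.54 ± 0.19). Insulin and IGF signalling (-0.008 in SQ 1 and -0.24 in SQ 2), complement and acute phase genes (-0.085 and -0.311), glucocorticoid targets (-0.118 and -0.005) and TGF-beta and myofibroblast genes (-0.18 and 0.435) had small medians in SQ 1. Macrophage, endothelial, muscle, osteoblast and chondrocyte lists had medians between -0.115 and 0.085 in SQ 1 and between -0.205 and 0.21 in SQ 2.

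Squalene was also set against the mean of the 4 derivatives, a comparison that leaves the controls out. The limma test called 0 of 22206 probe sets (0%), with 723 (3.26%) at an unadjusted p under 0.05. In the fit without the block, 3 genes that could be named were nearest to the threshold. They were the poly(A) polymerase gene Papolg (-0.77 ± 0.15), Rgs8, a regulator of G protein signalling (0.99 ± 0.20), and the collagen gene Col6a5 (0.90 ± 0.19). Each had a limma adjusted p of 1.0 in that fit. Papolg had 8.42 and 8.67 in SQ, against 9.29 and 9.17 in control. A p that misses the threshold does not show that squalene and its derivatives act alike.

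Single genes are given beside the derivatives, which share the controls, array by array. For Psmb8, SQ 1 was 1.22 above the control mean and the first derivative arrays 0.11 to 0.50 above it, and SQ 2 was 1.61 above it and the second derivative arrays 0.94 to 1.34. For Lig4, SQ 1 was -1.40 from the control mean and the first derivative arrays -0.76 to 0.46, while SQ 2 was at -1.23, within the -1.52 to -0.65 of the second derivative arrays. Other genes did not stand apart from the derivatives in this way. For Rad51c, SQ 1 was at 1.14, within the 0.91 to 1.51 of the first derivative arrays. Its SQ 2 was at 1.34, under the 1.45 to 2.29 of the second. For Trappc4, SQ 1 was at 0.985, under the 1.615 to 1.935 of the first derivative arrays. Its SQ 2 was at 1.485, within the 0.325 to 1.565 of the second. SQ 1 lay above all 4 first derivative arrays for 11 of the 19 higher probe sets (57.9%), beside 25.5% of all, and below them for 27 of the 43 lower ones (62.8%), beside 25.6% of all. Those probe sets were chosen for their level in SQ 1, so nothing is read from these shares.

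The authors' deposited table of squalene against control was made from the same signals. No false discovery rate in the authors' deposited table was under 0.05 (smallest 0.9197), while 1112 probe sets had p under 0.05. Among those of the authors' deposited table, 184 had a fold change of at least 2 together with p under 0.05, of which 108 were higher and 76 lower. Of these 184, 47 belonged to the class past 2-fold in both arrays, 7 to that of SQ 2 alone and 7 to that of SQ 1 alone, and 123 lay between the classes. By fold change alone the authors' deposited table held 723 probe sets, 392 of them past 2-fold in SQ 2 alone.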

How the data were processed

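RNA was measured on Clariom S mouse arrays. The authors normalized by SST-RMA, for which the design text names version 4.0.1 of the Transcriptome Analysis Console, and the deposited log2 signals are rounded to 2 decimals. Their deposited comparison gives signed fold changes, a score in which a decrease is written as minus the reciprocal, with p-values and false discovery rates, the test being not given in the sources used here. A second deposited log2 table holds control probe sets. Signals of 22206 probe sets were used without further scaling; 21367 carried 1 symbol, 836 several and 3 none.

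SQ was compared with control in limma 3.58.1 (R 4.3.3; lmFit, contrasts.fit, eBayes) over 12 arrays and 6 groups, with Benjamini-Hochberg adjustment over all probe sets and a threshold of 0.05. Each SQ array was also set against the control mean. The number of arrays, the step between SQ 1 and SQ 2 and dim signals limit the precision. The fit was tested on simulated data.

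Members, classes and the 37 lists (838 of 878 entries measured by a probe set with 1 symbol) were chosen with earlier results of these data known. Named genes had 1 symbol, were no clone or predicted locus, reached the median level (5.56) and had controls within 0.5 of each other. Ranked by the smaller of the 2 differences, 15 were named each way for both arrays; 10 each way followed for SQ 2, 6 for SQ 1, 5 for opposite signs and up to 3 a list, with all cholesterol synthesis genes. Some of these genes are not reported here.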

Additional observations from a re-analysis of the deposited data

How the results depend on the processing

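No alternative called a probe set in either comparison. At an unadjusted p under 0.05, SQ against control gave 2286 probe sets with a replicate block, 2045 with the second compound arrays as a block and 434 at or above the median level, and 424 to 1969 when an array was left out (1117 as reported). The 1969 came without SQ 1, and 424 and 435 without control 1 and control 2. SQ against the derivatives gave 1196 with a replicate block and 480 on the 10 compound arrays only, and 705 to 2117 without an array (723 as reported), the highest without SQ 2. The replicate numbers did not pair SQ with control (correlation of their steps 0.001), and the block changed no call.

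The 19 probe sets higher in both arrays became 343 at 1.5-fold and 2 at 3-fold, and 12 above the negative control median, a filter chosen after the data were seen. Without control 1 or control 2 they were 34 and 42, of which 13 and 15 were shared with the 19. The 43 lower ones became 456 and 0 at those folds, 27 at or above the median level and 19 above the negative control median, and 72 and 54 without control 1 or control 2. The cause was not tested, except that the filters leave fewer probe sets. List medians given for each SQ array above show what leaving out an array does to a list. The number of arrays and dim signals limit what single genes show.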
